A study of Mus musculus with 6 samples.

Results

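The 5 genes described here are products of the chief cell, the zymogenic (enzyme-secreting) cell of the gastric gland: Gif (current symbol Cblif), Chia (current symbol Chia1), Pga5, Bhlha15 and Lipf. They were chosen by gene symbol from a table of 39179 genes, and all 5 were found, with 1 row each. Expression was measured by RNA sequencing of the pylorus, where the stomach meets the duodenum, in 3 Sox2 WT and 3 Sox2 KO libraries (WT and KO from here on, with values always in the order of replicates 1 to 3). The KO mice had the genotype Rosa26CreER; Sox2 fl/fl, and the genotype of the WT mice was Rosa26WT; Sox2 fl/fl, so that both groups carried the floxed gene. Both groups received tamoxifen at 8 weeks of age and were collected 2 weeks later, and all were of a C57BL/6 x 129 mixed background. Rosa26 is active in most cell types, so the CreER recombinase was not limited to the epithelium. RNA came from epithelium together with mesenchyme after the muscle layer had been taken off. Age is labelled as 8 weeks, against 10 weeks in the series text. Whether every library came from its own animal is not labelled, so the p-values cover only library-to-library spread, which may be technical in part.

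Chief cells sit at the base of the glands of the gastric body and fill their apex with zymogen granules. They mature from mucous neck cells, and the transcription factor MIST1, encoded by Bhlha15, enlarges their secretory apparatus as they do so. Glands of the pylorus are mostly mucous, with few chief cells and few acid-secreting parietal cells. In mice the chief cell makes gastric intrinsic factor, which carries vitamin B12 (cobalamin) to the ileum, as well as pepsinogens, acidic chitinase and, in many species, gastric lipase.

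The sequences just upstream of Gif and Bhlha15 are shown because these genes kept a nearly constant ratio to each other in all 6 libraries, and because bHLH factors such as MIST1 bind E-boxes. They are from RefSeq on GRCm38.p6, plus strand, 5′ to 3′, ending just before the first annotated exon, with every E-box (CANNTG) in capitals.
Gif, chr19:11747309-11747553: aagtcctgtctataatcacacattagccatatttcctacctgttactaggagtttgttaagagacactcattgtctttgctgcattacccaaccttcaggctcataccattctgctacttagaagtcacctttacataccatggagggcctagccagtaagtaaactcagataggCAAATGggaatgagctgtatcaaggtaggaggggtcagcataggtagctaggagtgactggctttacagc
Bhlha15, chr5:144190036-144190285: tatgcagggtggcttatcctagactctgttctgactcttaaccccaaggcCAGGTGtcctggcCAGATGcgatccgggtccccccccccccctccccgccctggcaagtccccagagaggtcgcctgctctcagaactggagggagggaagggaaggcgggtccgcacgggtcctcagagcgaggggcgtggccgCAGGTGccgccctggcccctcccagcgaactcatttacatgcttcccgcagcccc
Positions are counted back from the RefSeq start, in a window of 250 bases, and each motif was searched on both strands. The Gif sequence shown has 245 bases, because GENCODE begins the first exon 5 bases before the RefSeq start, and those 5 bases count in the positions but are not shown. Gif had 1 E-box, CAAATG at -75. Bhlha15 had 3, at -200, -187 and -55. The window of Chia also had 3 E-boxes and that of Lipf had 4. An E-box of this kind occurred in 66.04% of 27025 promoters of this length. The E-box forms CATATG and CAGCTG, held by 3.48% and 12.8% of promoters, were in none of the 4 windows. The SOX-type letters ACAATG, held by 11.0% of promoters, occurred in Gif as CATTGT at -182 and at 2 places in Lipf, and not in the windows of Chia or Bhlha15. TATAAA, held by 13.0%, occurred in Chia alone of the 4, at -43. RefSeq promoters were matched for 4 of the 5 genes.

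Of the chief cell genes, 4 were detected in all 6 libraries and Lipf was not. The targeted gene matched the labels. Sox2 was at 11.1, 9.03 and 10.9 RPKM (reads scaled by gene length and by library size) in the WT libraries, and at 0.342, 0.210 and 0.420 RPKM in the KO libraries. Between 20180 and 20550 genes were above 0 in each library. By Xist and the Y-linked gene Ddx3y, WT replicates 2 and 3 were female and the other 4 libraries male, so sex was not balanced between the groups. WT replicate 1 therefore did not come from the same animal as WT replicates 2 and 3. The comparison asks which genes of the pylorus differ once Sox2, a transcription factor of foregut and gastric progenitors, has been deleted. It was tested with limma on log2(RPKM + 0.5) over 14045 genes with a mean of at least 0.5 RPKM. In that test 0.0285% of genes had an adjusted p under 0.05 (0.0142% higher and 0.0142% lower in KO), and 7.08% had groups that did not overlap. On this scale, changes of genes near 0 appear smaller than they are.

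Of the secreted products, Chia was the most abundant and the most variable. It encodes acidic mammalian chitinase, which cuts the chitin of insects and fungi in the stomach (ENSMUSG00000062778, protein coding, chromosome 3, 106113229 to 106132120, plus strand, mm10). Chia was at 801, 3239 and 221 RPKM in the WT libraries. It was at 3255, 4857 and 1577 RPKM in the KO libraries. WT replicate 3 was the lowest library and KO replicate 2 the highest, a 22.0-fold range, and WT replicate 2 fell inside the KO range. These levels came from between 10768 and 269795 recovered reads, so counting error was small beside the differences between libraries. Chia took between 0.0439% and 0.950% of the summed RPKM of a library. The group means were 1420 ± 1602 RPKM in WT and 3230 ± 1640 RPKM in KO (SD, n = 3 each). The log2 fold change was 1.81 (SE 0.915, 95% interval -0.33 to 3.96, limma adjusted p = 0.9995). The difference was above the within-group SD of 1.49 on that scale, but its interval included 0 and it did not pass.

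Gif, the gene of gastric intrinsic factor, came next (ENSMUSG00000024682, protein coding, chromosome 19, 11747554 to 11763447, plus strand, mm10). It was at 302, 856 and 236 RPKM in the WT libraries, and at 551, 662 and 405 RPKM in the KO libraries. The 3 KO values lay inside the WT range, which was set by replicate 2 at the top and replicate 3 at the bottom. The log2 fold change was 0.42 (SE 0.466, 95% interval -0.67 to 1.51, limma adjusted p = 0.9995).

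Pga5 encodes a pepsinogen of the A type, the precursor of the acid protease pepsin (ENSMUSG00000024738, protein coding, chromosome 19, 10668956 to 10678071, minus strand, mm10). It was at 85.1, 57.0 and 52.1 RPKM in the WT libraries, and at 49.7, 43.4 and 116 RPKM in the KO libraries. KO replicates 1 and 2 were the lowest libraries and KO replicate 3 the highest, so the groups overlapped and the order of libraries was not that of Gif or Chia. The log2 fold change was -0.00 (SE 0.375, 95% interval -0.88 to 0.87, limma adjusted p = 0.9995).

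Bhlha15 is the transcription factor of the set (ENSMUSG00000052271, protein coding, chromosome 5, 144190286 to 144194441, plus strand, mm10). It was at 2.49, 6.25 and 2.03 RPKM in the WT libraries, and at 4.93, 5.67 and 3.57 RPKM in the KO libraries, from 181 to 612 reads. As for Gif, all 3 KO values lay inside the WT range. The log2 fold change was 0.47 (SE 0.362, 95% interval -0.38 to 1.32, limma adjusted p = 0.9995).

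Lipf, the gastric lipase gene, was at the edge of detection (ENSMUSG00000024768, protein coding, chromosome 19, 33961187 to 33976810, plus strand, mm10). It was listed at 0 in the 3 WT libraries and in KO replicates 2 and 3, and at 0.0240 RPKM in KO replicate 1, which by its annotated length is 1.00 read. In these libraries 3 reads would be worth 0.0629 to 0.0884 RPKM, so no difference was detectable at this depth, and no fold change is given. It was the 1 gene of the 5 that did not pass the filter on low values.

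**Figure D1:**
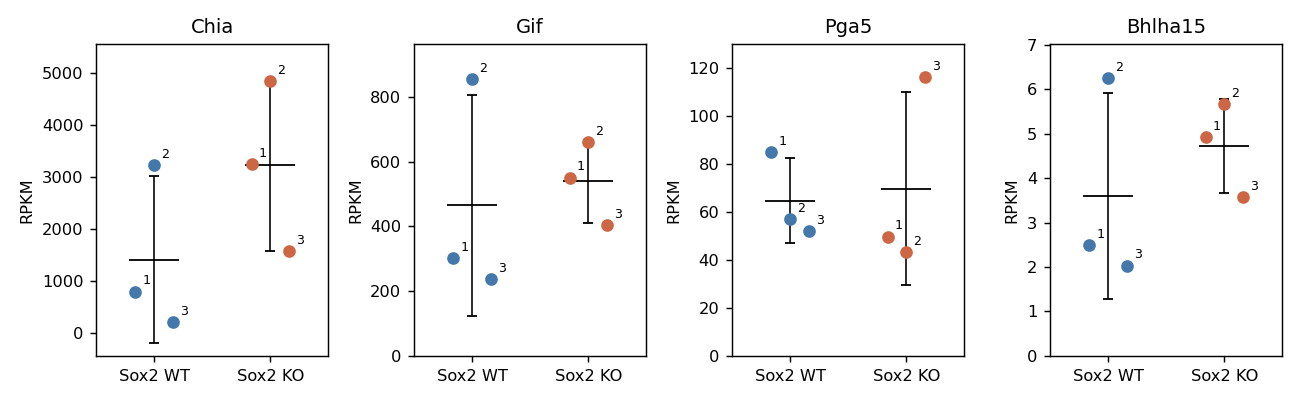
RPKM of Chia, Gif, Pga5 and Bhlha15 in each library (points, numbered by replicate), with the mean (horizontal line) and SD (bars) of the 3 WT and 3 KO libraries. WT replicate 2 is the highest WT library for Chia, Gif and Bhlha15, and the groups overlap in all 4 genes.

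In order of level per length, Chia was above Gif in 5 of 6 libraries, Gif above Pga5 in 6 of 6 and Pga5 above Bhlha15 in 6 of 6. The ranges of Chia and Gif overlapped, and in WT replicate 3 Gif (236 RPKM) was above Chia (221 RPKM). Gif and Pga5 did not overlap in range, nor did Pga5 and Bhlha15. Of the 4 genes tested, 0 passed the limma test over all genes and 0 had an unadjusted p under 0.05, against 3.15% of all tested genes. Their groups overlapped in 4 of 4. Their median log2 fold change was 0.45, beside 0.02 over all tested genes, and 3 of the 4 were above 0, as were 56.8% of all tested genes.

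All 4 were among the genes that differed most between libraries of 1 group. The within-group SD on the log2 scale was 1.49 for Chia, 0.74 for Gif, 0.60 for Pga5 and 0.58 for Bhlha15, against a median of 0.18 over all tested genes. Only 0.135% of tested genes had a larger within-group SD than Chia, and 3.84% had a larger one than Bhlha15. The spread was wider in WT than in KO for Chia (14.7-fold against 3.08-fold), Gif (3.62-fold against 1.64-fold) and Bhlha15 (3.08-fold against 1.59-fold). For Pga5 it was wider in KO (2.68-fold against 1.63-fold). These spreads were not tested against each other.

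Gif and Bhlha15 moved in step with each other and with Pgc, the gene of pepsinogen C (progastricsin). Likeness was measured as the root mean square (RMS) difference between log2 profiles over the 6 libraries, each centred on its own mean, among 11174 other genes. The gene closest to Gif was Pgc, at an RMS difference of 0.113, and Bhlha15 was at place 5, at 0.138. The others in the first 5 were Pbld1, Smarcd3 and Pdlim4. The ratio of Bhlha15 to Gif was 0.00824, 0.00730 and 0.00860 in the WT libraries, against 0.00895, 0.00857 and 0.00883 in the KO libraries. It varied 1.23-fold while Gif itself varied 3.62-fold. The ratio of Pgc to Gif lay between 44.3 and 57.3 in the 6 libraries. Pgc was by far the more abundant, at 15353, 49042 and 11544 RPKM in the WT libraries, against 28238, 29328 and 19292 RPKM in the KO libraries. It took 2.30% to 10.2% of the summed RPKM of a library, and its log2 fold change was 0.29 (SE 0.655; adjusted p = 0.9995 in limma; -0.16 under quantile normalization).

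The genes closest to Bhlha15 were Pbld1 (RMS difference 0.109), Amh, Tmed6, Gif and Cpm. Tmed6 encodes a member of the p24 family of proteins that sort cargo between the endoplasmic reticulum and the Golgi. It was at 26.0, 65.99 and 25.1 RPKM in the WT libraries, and at 46.6, 51.8 and 43.8 RPKM in the KO libraries. WT replicates 1 and 3 were again the lowest and WT replicate 2 the highest.

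**Figure D2:**
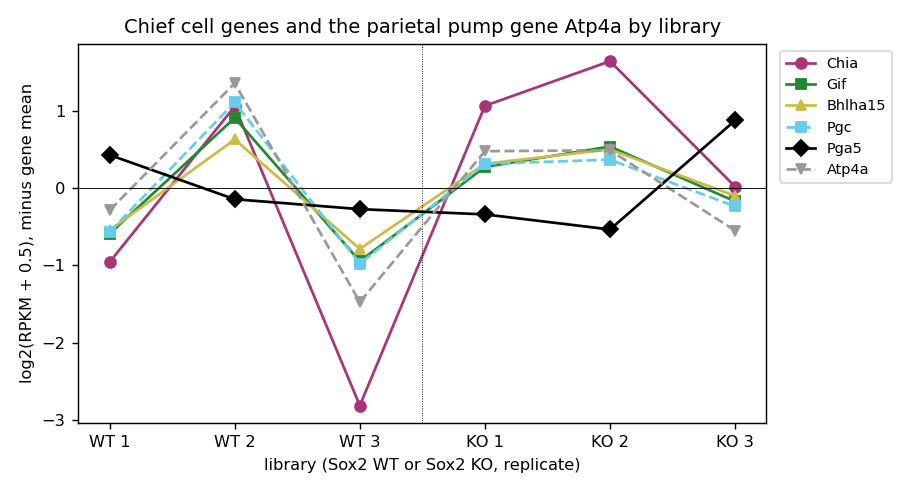
Level of each gene in each library as log2(RPKM + 0.5) minus the mean of that gene over the 6 libraries. Lines only join the values of 1 gene. Gif, Bhlha15 and Pgc lie close together, Chia has the widest range, and Pga5 is highest in KO replicate 3.

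Pga5 did not follow the other pepsinogen or any other gene of the set. The ratio of Pgc to Pga5 ran from 166 in KO replicate 3 to 860 in WT replicate 2, a 5.18-fold range. By profile, Pgc was at place 10994 of 11174 from Pga5, with an RMS difference of 0.961, and Gif at place 10967. The closest genes were Ndufs5 (RMS difference 0.177), Chtf18, Abcb1b, Mcm2 and Fen1. Mcm2 encodes a subunit of the replicative helicase, Fen1 the flap endonuclease of DNA replication and Chtf18 a subunit of a clamp loader. Mcm2 was at 12.7, 7.81 and 9.35 RPKM in the WT libraries, and at 7.44, 8.01 and 14.5 RPKM in the KO libraries. Like Pga5, it was highest in KO replicate 3 and next in WT replicate 1.

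Chia, like Gif, was lowest in WT replicates 3 and 1, as the profiles by library show, but its range was wider and its highest library was KO replicate 2. The closest genes were Clps, the colipase gene (RMS difference 0.395), and Pla2g1b, a secreted phospholipase A2 gene (0.435). Then came the trypsin gene Try4, Zfp125 and the lipase-related gene Pnliprp1. Clps was at 1669, 9509 and 818 RPKM in the WT libraries, and at 6387, 7991 and 3184 RPKM in the KO libraries. Pla2g1b was at 1087, 6921 and 535 RPKM in the WT libraries, and at 4316, 5112 and 1925 RPKM in the KO libraries. Both were highest in WT replicate 2, where Chia was not, and for both genes the groups overlapped. The log2 fold changes of Clps (1.21, SE 0.862) and Pla2g1b (1.13, SE 0.898) did not pass (adjusted p = 0.9995 for each in limma).

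Several of these genes are textbook products of the pancreas, so the pancreatic acinar list was read beside them. Of its 11 genes, Cpa1 (a carboxypeptidase) and Amy2a5 (amylase) were listed at 0 in all 6 libraries. The elastase gene Cela3b, the pancreatic lipase gene Pnlip and the trypsin gene Prss2 were at most 0.1001 RPKM in any library. The summed level of the list was 2.56 to 15.9 RPKM in WT and 5.84 to 11.7 RPKM in KO, most of it from Cel, the carboxyl ester lipase gene. Other genes of the list were detected and varied between libraries. Cel was at 2.10 to 13.3 RPKM over the 6 libraries, Ctrb1 (chymotrypsinogen) at 0.134 to 1.88 RPKM, and the acinar transcription factor genes Ptf1a and Rbpjl at 0.104 to 0.663 and 0.123 to 1.05 RPKM. All 4 were lowest in WT replicate 3, as were Chia and Clps, and Cel, Ptf1a and Rbpjl were highest in WT replicate 2. The part of acinar genes in the values of Chia was not tested.

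Of 8 parietal genes, 7 had the same highest and lowest libraries as Gif, while Chrm3, a muscarinic receptor gene, varied little (3.68 to 5.08 RPKM). Atp4a, the catalytic subunit of the gastric proton pump, was at 307, 961 and 135 RPKM in the WT libraries, and at 522, 526 and 256 RPKM in the KO libraries. WT replicate 2 was highest and WT replicate 3 lowest, as for Gif, Pgc and Bhlha15. By profile, Atp4a was at place 11 of 11174 from Chia (RMS difference 0.850) and 149 from Gif (0.356). It was at place 1630 from Bhlha15 (0.465) and 11094 from Pga5 (1.15). Places are counted within 1 gene and do not compare across genes. By RMS difference Atp4a was nearer to Gif and Bhlha15 than to Chia, whose wide range put most genes far from it. The summed level of 8 parietal genes was 417 to 2908 RPKM in WT and 790 to 1524 RPKM in KO. Of the 8, 0 passed and 7 had a log2 fold change above 0, with a median of 0.20. In bulk tissue, fewer cells of a type and less RNA per cell cannot be told apart, and the part of parietal and chief cell content in these values was not tested.

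Set against the pump gene in the same library, Gif and Bhlha15 overlapped between the groups and Chia did not. The ratio of Gif to Atp4a was 0.985, 0.891 and 1.76 in the WT libraries, against 1.06, 1.26 and 1.58 in the KO libraries. The ratio of Chia to Atp4a was 2.61, 3.37 and 1.64 in the WT libraries, against 6.24, 9.23 and 6.16 in the KO libraries. Every KO library was above every WT library. By the log2 difference from the mean of Atp4a and Atp4b, 0.0712% of all tested genes were likewise higher in the 3 KO libraries without overlap. The pump mean was lowest in WT replicate 3 (7.39 on the log2 scale), so a gene of even level is highest there and overlaps. The share is therefore low by construction and is no measure of how unusual Chia is. By level alone, 4.09% of tested genes were higher in KO without overlap. Clps was another gene whose ratio to Atp4a did not overlap, at 5.44, 9.90 and 6.08 in the WT libraries, against 12.2, 15.2 and 12.4 in the KO libraries.

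The ratio of Chia to Gif was 2.65, 3.78 and 0.934 in the WT libraries, against 5.91, 7.34 and 3.90 in the KO libraries. The groups did not overlap, but KO replicate 3 was only just above WT replicate 2. By the log2 difference from Gif, 0.0783% of tested genes were higher in KO without overlap. Gif too was lowest in WT replicate 3, so this share is low for the same reason. The ratio of Chia to Clps, its closest gene, was 0.480, 0.341 and 0.270 in the WT libraries, against 0.510, 0.608 and 0.495 in the KO libraries. Here too all KO values were the higher ones, by a small margin. Clps too was lowest in WT replicate 3, and the share of all tested genes was not computed for this ratio. These ratios were chosen after the levels had been seen and carry no test.

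**Figure D3:**
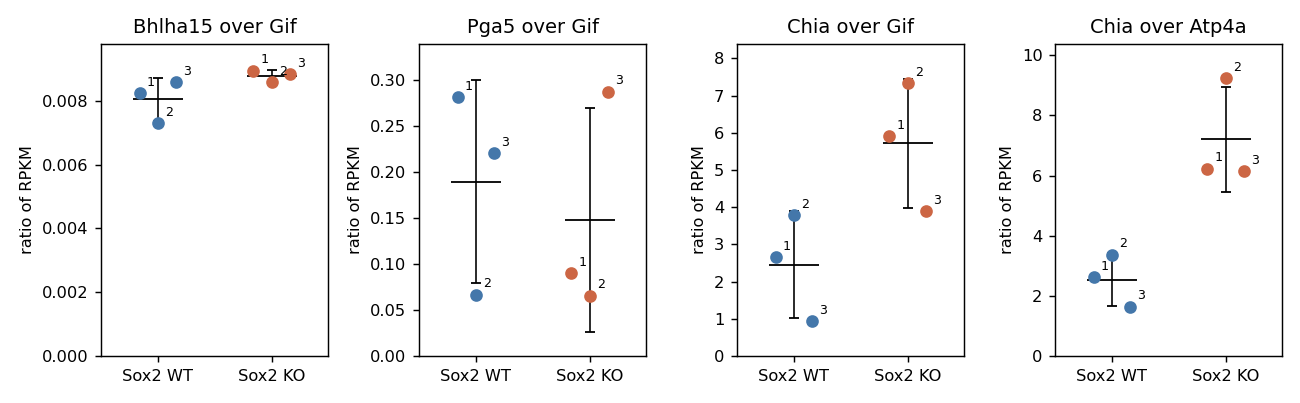
Ratios of RPKM within each library (points, numbered by replicate) with mean (horizontal line) and SD (bars) of each group of 3. Bhlha15 over Gif stays between 0.00730 and 0.00895, Pga5 over Gif overlaps between the groups, and Chia over Gif and Chia over Atp4a are higher in all 3 KO libraries.

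A fit over all genes with the mean level of Atp4a and Atp4b as a covariate, also chosen after the data were seen, narrowed the intervals of Chia, Gif and Bhlha15 and not that of Pga5. At equal pump level the log2 fold change of Chia was 1.46 (SE 0.215, 95% interval 0.94 to 1.98). Its unadjusted p was 4.3e-04, the 24th smallest of 14045, and it did not pass (limma adjusted p = 0.246). The log2 fold change was 0.34 for Bhlha15 (SE 0.132, 95% interval 0.02 to 0.66), 0.25 for Gif (SE 0.164, 95% interval -0.15 to 0.64) and 0.04 for Pga5 (SE 0.391, 95% interval -0.91 to 0.99). All 3 had a limma adjusted p of 0.9996. In this fit 0.0214% of all tested genes had an adjusted p under 0.05, and 2.57% of all tested genes were higher in KO at an unadjusted p under 0.05, among them Chia and Bhlha15. Clps (0.88, SE 0.208, adjusted p = 0.662) and Pla2g1b (0.79, SE 0.199, adjusted p = 0.732) did not pass either.

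**Figure D4:**
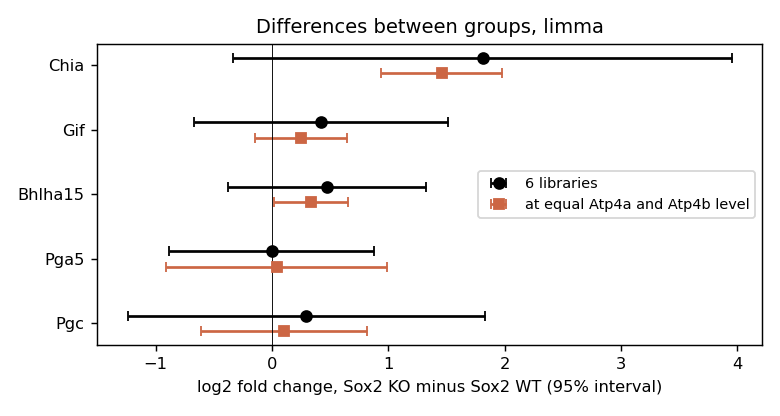
Log2 fold change, KO minus WT, with its 95% interval from limma, for 4 of the chief cell genes and Pgc. Circles use the 6 libraries as they are and squares add the level of Atp4a and Atp4b as a covariate, where the interval of Chia runs from 0.94 to 1.98.

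Single libraries decided the size of these differences. Without WT replicate 2 the log2 fold change was 0.98 for Gif (unadjusted p = 0.00647), 0.90 for Bhlha15 (unadjusted p = 0.00363) and 2.79 for Chia (unadjusted p = 0.00456), and limma adjusted p-values were between 0.563 and 0.652. Without WT replicate 3 it was 0.05 for Gif, 0.20 for Bhlha15 and 0.86 for Chia. Without WT replicate 1 it was 0.23 for Gif and 0.32 for Bhlha15, and without KO replicate 2 it was 0.26 for Gif. Pga5 had log2 fold changes from -0.44, without KO replicate 3, to 0.26, without KO replicate 2. With sex as a covariate, which sets KO against the 1 male WT library, the log2 fold change was 1.87 for Chia, 0.80 for Gif, 0.78 for Bhlha15 and -0.43 for Pga5 (limma adjusted p = 0.999 for each).

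**Figure D5:**
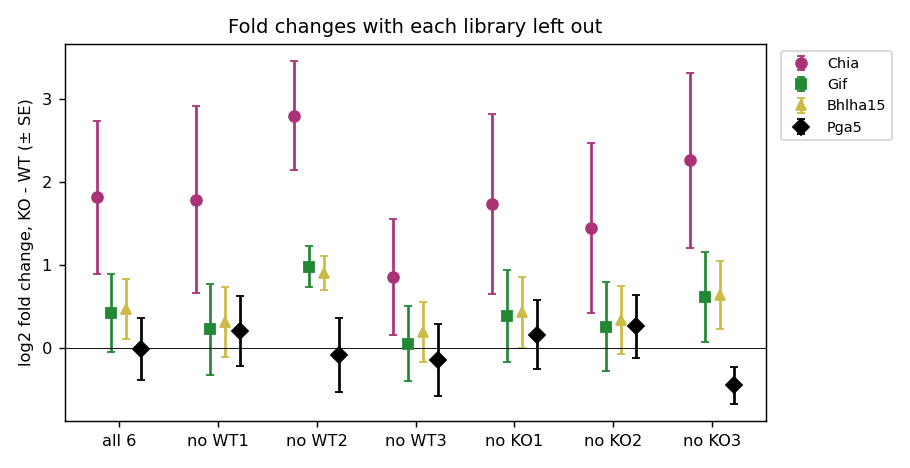
Log2 fold change, KO minus WT, with its SE from limma, over all 6 libraries and with each library left out in turn. Chia runs from 0.86 to 2.79 and Pga5 lies on both sides of 0.

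Relatives of the 5 genes were read from lists chosen with earlier results of these data known. Among 7 tested aspartic proteases, 0 passed and the median log2 fold change was 0.10. Ctse, the cathepsin E gene of surface mucous cells, was at 1022 to 1591 RPKM in WT and 1083 to 1609 RPKM in KO. Ctsd, the lysosomal cathepsin D gene, was at 184, 217 and 206 RPKM in the WT libraries, and at 257, 232 and 218 RPKM in the KO libraries. The groups did not overlap, by a narrow margin, and its log2 fold change of 0.22 (SE 0.133) did not pass (limma adjusted p = 0.9995). Cym, the neonatal milk-clotting protease gene, was at 13.6 RPKM in WT replicate 2 and at most 1.23 RPKM elsewhere.

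In the acid lipase family, 3 of 7 genes in the table could be tested and 0 passed. Lipa, the lysosomal acid lipase gene, was at 28.2 to 40.4 RPKM in WT and 24.4 to 43.7 RPKM in KO. Lipk, whose transcript was the closest to that of Lipf (68.7% identity over 1119 aligned bases), was at 0.463 to 1.11 RPKM in the 6 libraries. The closest transcript to Chia was that of Chil5, at 78.1% identity over 1162 bases, so neither gene has a near-identical copy in the annotation. For Gif, Pga5 and Bhlha15 no other gene's transcript aligned on the same strand under the settings used, and none of the 5 genes shares exons with another gene.

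Among 5 tested chitinase-family genes besides Chia, 0 passed and 2, Chi3l3 and Chi3l4, had groups that did not overlap, against 4.09% of all tested genes on the higher side. Chi3l3 was at 0.128, 0.0880 and 0.218 RPKM in the WT libraries, and at 1.08, 12.8 and 1.35 RPKM in the KO libraries. It passed the filter on low values only through the KO libraries. Chi3l4, which encodes a chitinase-like lectin without enzyme activity, was at 3.14, 0.726 and 40.8 RPKM in the WT libraries, and at 213, 1357 and 466 RPKM in the KO libraries (log2 fold change 6.50, SE 1.25; adjusted p = 0.356 in limma). It was highest in KO replicate 2, as was Chia. It was lowest in WT replicate 2, where Chia was high. Chit1, the other active chitinase gene, was at 1.03 to 3.02 RPKM in WT and 2.03 to 3.22 RPKM in KO.

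Vitamin B12 carriers and receptors that act with or after intrinsic factor showed no call. Of 8 genes, 5 were tested and 0 passed. The plasma carrier gene Tcn2 was at 40.2 to 45.3 RPKM in WT and 36.2 to 50.8 RPKM in KO. The receptor genes Cubn and Amn, whose products take up intrinsic factor in the ileum, were at most 0.0703 RPKM.

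Genes linked to MIST1 gave no call. Of 6 genes reported to depend on it, 5 were tested, 0 passed and the median log2 fold change was 0.04. Rab3d, a granule GTPase gene, was at 68.9 to 81.0 RPKM in WT and 75.1 to 78.8 RPKM in KO, a narrow range beside that of Bhlha15. Copz2 (a coatomer subunit) and Ccpg1 (a receptor for endoplasmic reticulum turnover) were each highest in WT replicate 2, at 7.11 and 2.63 RPKM. Atp2c2, a calcium and manganese pump gene of the secretory pathway, was at 3.43, 2.00 and 4.77 RPKM in the WT libraries, and at 3.00, 2.76 and 1.49 RPKM in the KO libraries, with its highest value in WT replicate 3, where Bhlha15 was lowest. Rab26, another granule GTPase gene, was at most 0.133 RPKM. Of 12 endoplasmic reticulum genes of secretory cells, 12 were tested, 0 passed and the log2 fold changes lay between -0.11 and 0.07. Among them the transcription factor gene Xbp1 was at 77.2 to 95.02 RPKM in WT and 83.0 to 90.2 RPKM in KO.

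Receptors and regulators reported for zymogenic cells gave 0 calls of 7 tested. Cckar, a cholecystokinin receptor gene, was at 3.54, 21.5 and 1.90 RPKM in the WT libraries, and at 8.40, 9.33 and 4.41 RPKM in the KO libraries. WT replicate 2 was the highest and WT replicate 3 the lowest, as for Gif. Esrrg of the same list, which is also counted among the parietal genes above, had the same highest and lowest libraries. Ddit4 and Sctr, more abundant in that list, had another order. Ddit4 was at 17.1, 10.6 and 21.3 RPKM in the WT libraries, and at 23.9, 18.9 and 16.5 RPKM in the KO libraries. Sctr was at 14.3, 14.8 and 18.9 RPKM in the WT libraries, and at 18.9, 20.5 and 14.8 RPKM in the KO libraries. Chrm1, a muscarinic receptor gene, was at 1.55 to 1.96 RPKM in WT and 2.22 to 2.46 RPKM in KO (log2 fold change 0.30, SE 0.127; adjusted p = 0.9995 in limma). Of 5 progenitor genes reported in chief cells or at the gland base, 0 passed. Lgr5, an R-spondin receptor gene, was at 2.41 to 2.65 RPKM in WT and 2.14 to 2.74 RPKM in KO, and Sox9 at 17.9 to 21.9 and 18.3 to 20.6 RPKM.

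Other cell types that the tissue could hold were read the same way. Gland mucous genes summed to 11530 to 14650 RPKM in WT and 11420 to 20030 RPKM in KO, with the highest sum in KO replicate 3, the library with the most Pga5. Most of each sum was Tff2 and Gkn3, which were highest in KO replicate 3 at 15663 and 4136 RPKM. Aqp5 was highest in WT replicate 3 (57.1 RPKM) and A4gnt in KO replicate 2 (89.6 RPKM). Of the 5, 0 passed. Muc6, a gel-forming mucin gene of these cells, was at 73.9 to 96.0 RPKM in WT and 74.5 to 96.6 RPKM in KO. Of 4 surface mucous genes, 0 passed, with Tff1, a secreted trefoil peptide gene, at 37094 to 61772 RPKM in WT and 42073 to 59033 RPKM in KO. Plasma cells also use Bhlha15. Their 8 genes summed to 84.3 to 102 RPKM in WT and 88.8 to 102 RPKM in KO, and 0 of 6 tested passed. Most of each sum was Sdc1, at 52.4 to 69.6 RPKM over the 6 libraries. Igj was at 24.1 to 26.4 RPKM in WT and 15.9 to 36.5 RPKM in KO. Derl3 was highest in WT replicate 2 (2.58 RPKM) and lowest in WT replicate 3 (0.914 RPKM), as was Bhlha15. The other tested plasma cell genes were highest in other libraries. The part of plasma cells in the values of Bhlha15 was not tested. Of 5 squamous forestomach genes, Krt13, the 1 tested, was at 0.551 to 2.03 RPKM and did not pass, Lor was at most 0.249 RPKM, and Krt5, Krt14 and Trp63 were at most 0.0674 RPKM. Of 5 duodenal enterocyte genes, 0 passed, and their directions were mixed. Fabp1, a fatty acid binding protein gene, was at 1.36, 5.78 and 1.64 RPKM in the WT libraries, and at 5.75, 8.96 and 4.40 RPKM in the KO libraries (log2 fold change 1.18, SE 0.468; adjusted p = 0.9995 in limma). Alpi, the intestinal alkaline phosphatase gene, was at 8.73, 6.27 and 17.6 RPKM in the WT libraries, and at 2.25, 6.76 and 5.30 RPKM in the KO libraries (log2 fold change -1.10, SE 0.449; adjusted p = 0.9995 in limma). Fabp2 had a log2 fold change of -0.17, Apoa1 of 0.29 and Apoa4 of 0.31. Over the 15 lists together, 78 genes were tested, 0 passed in limma and 5 had an unadjusted p under 0.05, against 3.15% of all tested genes: Alpi, Chi3l3, Chi3l4, Chrm1 and Fabp1.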

How the data were processed

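RPKM values of 6 libraries, 3 Sox2 WT and 3 Sox2 KO, were used as deposited by the authors. The submitters' processing notes name CASAVA 1.7, STAR and build mm10. Which counting tool, annotation, filters and strandedness were applied is not given in the sources used here. All 6 single-library tables equal the series table. Coordinates are from GENCODE mouse release 21 (GRCm38, which is mm10).

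Reads were recovered for single genes as the smallest whole numbers that fit all libraries to within 0.0001 of a whole read. They could be too low by a common factor. Counting error covers reads only.

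Groups were compared with limma 3.58.1 in R 4.3.3 on log2(RPKM + 0.5), with a mean-variance trend, over 14045 genes with a mean of at least 0.5 RPKM. Of rows sharing a symbol, the one with the highest mean was kept. P-values are two-sided and adjusted by the Benjamini-Hochberg method over all genes, with a threshold of 0.05. The script was tested on simulated data. Transcripts were aligned with blastn 2.17.0.

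The 5 genes, the 15 other lists and the tests were chosen with earlier results of these data known. Named genes come from the 5, Sox2, the 4 most abundant genes of each list, and the 5 closest profiles of each of the 4 genes tested (mean of at least 1 RPKM, predicted genes left out). Cym, Chit1, Cubn, Amn, Rab26, Chrm1, Chrm3, Aqp5, Fabp1, Trp63 and the acinar genes near 0 lie outside this rule and were named after their values were seen. Alternatives were pseudocounts of 0.1 and 1, no filter or a mean of at least 1 RPKM, median-of-ratios and quantile scaling, no trend, robust variances, the replicate number as a block, sex as a covariate, all rows kept, an adjusted p under 0.1 and each library left out. The covariate of Atp4a and Atp4b was added after the data were seen.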

Additional observations from a re-analysis of the deposited data

How the results depend on the processing

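Under all 19 alternatives 0 of the 4 tested chief cell genes passed. Chia, Gif and Bhlha15 kept a positive log2 fold change in all 19, with adjusted p-values down to 0.246 for Chia, 0.652 for Gif and 0.563 for Bhlha15. Alternatives of the filter, rows, variance estimate, block and threshold left the fold change of these genes as it was. Its sign could not change there. The number of all genes past the threshold, 4, became 1 with a replicate block, 1 with sex as a covariate and 8 at an adjusted p under 0.1, and ran from 1 to 8 with 1 library left out.

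Near 0, signs changed. The log2 fold change of Pga5 went to 0.040 with the Atp4a and Atp4b covariate and ran from -0.44 to 0.26 with 1 library left out. Pgc went to -0.16 under quantile normalization and ran from -0.12 to 0.92 with 1 library left out. Atp4a ran from -0.40 to 1.02 and Atp4b from -0.41 to 1.08, and Atp4b went to -0.011 in the fit that used its own level as a covariate.

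Over all tested genes, same-numbered deviations from the group means correlated at 0.00879, 0.0970 and -0.0740. This does not settle whether replicate numbers pair the samples. In both groups Chia, Gif and Bhlha15 were highest in replicate 2 and lowest in replicate 3, and Pga5 was not. With the number as a block, the SE of Chia went from 0.915 to 0.461. It went from 0.466 to 0.293 for Gif, 0.362 to 0.219 for Bhlha15 and 0.375 to 0.379 for Pga5. In that limma fit Chia had an unadjusted p of 0.0100 and an adjusted p of 0.998, and no call of the 4 genes changed. Female libraries occur in Sox2 WT alone, so a difference of sex rests on 1 male Sox2 WT library. Among the 5 genes, Lipf alone was at the edge of detection, with 1 read in KO replicate 1 and 0 in every other library.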
